A study of Mus musculus with 4 samples.

Results

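The cytosolic RNA sensors and effectors examined here are 7 genes, chosen by name, of the 39186 genes in the table the authors deposited. They are the RNA helicases *Ddx58* (RIG-I), *Ifih1* (MDA5) and *Dhx58* (LGP2), their adaptor *Mavs*, the kinase *Eif2ak2* (PKR), the zinc-finger antiviral protein *Zc3hav1* (ZAP) and the RNA-editing enzyme *Adar*. Each name matched 1 row, and the 7 genes all passed the filter on low values. RNA was sequenced from LSK cells sorted from fetal livers of C57BL/6 mice, in 2 *Pich*-KO and 2 *Pich*-WT samples. LSK cells are lineage-negative cells with Sca-1 and c-Kit on their surface, the compartment in which fetal hematopoietic stem cells are found. The *Pich*-KO mice carry a short germline deletion near the start of the second exon of *Pich*, an X-linked gene for a helicase of mitotic DNA bridges, and both groups are otherwise described as the same strain, with no treatment named. The study's methods describe fetal livers of E14.5 embryos and a lineage gate of antibodies to CD4, CD8, Gr-1, B220 and Ter119, but the labels of the sequenced samples give no age. Whether a sample came from a single embryo or a pool is not given in the sources used here, so the p-values cannot be said to measure the spread between embryos. They rest on the spread between these samples and on variance borrowed across genes.

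Cytosolic RNA sensors recognise RNA that looks foreign, such as double-stranded RNA or RNA with a triphosphate end. RIG-I and MDA5 signal through MAVS, a protein of the mitochondrial outer membrane, which activates the kinases and transcription factors that start type I interferon production. LGP2 has the helicase but lacks the signalling domains and modulates the other receptors. PKR halts translation by phosphorylating eIF2, ZAP binds CpG-rich RNA and directs it to decay, and ADAR converts adenosine to inosine in double-stranded RNA, which keeps cellular RNA from being sensed by MDA5. In many cell types interferon raises the genes of the receptors, PKR, ZAP and the long form of ADAR.

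The promoters of *Ddx58*, *Ifih1* and *Eif2ak2* held a pair of GAAA letters spaced as in the interferon-stimulated response element, which interferon-activated transcription factors bind. RefSeq promoter windows (build GRCm38.p6, 250 bases before to 50 bases after each annotated start) matched 6 of the 7 genes by symbol, and *Dhx58* had no entry. The search was for GAAA, any 2 bases and GAAA again on either strand, and 3.44% of all 32851 windows held it. In the stretches of 30 bases that follow, printed 5′ to 3′ on the gene's own strand, capitals mark the match. They are shown for the genes whose windows held the match, whatever their change in *Pich*-KO cells. *Dhx58*, *Zc3hav1* and *Adar*, for which none is shown, were also higher in *Pich*-KO cells. *Ddx58* is at chr4:40239804-40239833, *Ifih1* at chr2:62646206-62646235 and *Eif2ak2* at chr17:78882535-78882564, each on the minus strand.
Ddx58: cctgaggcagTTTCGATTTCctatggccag
Ifih1: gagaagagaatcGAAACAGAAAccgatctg
Eif2ak2: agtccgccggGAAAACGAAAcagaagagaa

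The match began at base 3 of the annotated transcript in *Ddx58*, where it reads on the opposite strand, at base 33 in *Ifih1* and at base 19 in *Eif2ak2*. The windows of *Mavs*, *Zc3hav1* and the 3 annotated starts of *Adar* held no match to these letters. The stretch before the start of *Mavs*, the 1 gene of the group that was lower, is shown for comparison and lies at chr2:131233963-131234062 on the plus strand.
Mavs: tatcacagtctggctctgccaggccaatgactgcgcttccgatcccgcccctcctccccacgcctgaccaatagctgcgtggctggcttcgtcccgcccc

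A second motif, TTCNNNGAA, the palindromic site of STAT factors, was in the window of *Eif2ak2*, starting 178 bases before the start, and in 1 window of *Adar*. It was in 8.3% of all windows. These matches are descriptions of the letters in the windows and do not show that a factor was bound.

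Reads on genes numbered 14703215 to 20933919 per sample. The *Pich* gene, listed as *Ercc6l*, had 1142 and 1232 normalized counts (reads on a gene divided by 1 size factor per sample) in *Pich*-KO against 772 and 661 in *Pich*-WT. Its mRNA was called higher in *Pich*-KO (log2 fold change 0.73, limma adjusted p = 0.00887). The mRNA of an allele with a small deletion therefore does not check the genotype labels. In *Pich*-WT sample 2 the Y-linked *Ddx3y*, *Uty*, *Kdm5d* and *Eif2s3y* had no reads, unlike in the other 3 samples. *Xist* had 699 normalized counts there, against 9.38 in *Pich*-WT sample 1 and 14.2 and 4.55 in *Pich*-KO samples 1 and 2. This is the pattern of female cells in *Pich*-WT sample 2 and of male cells in the others, though the labels give no sex. The 2 *Pich*-WT samples thus differed in sex, and *Pich* is X-linked. Without *Pich*-WT sample 2 the log2 fold changes of the 7 genes ran from −0.60 for *Mavs* to 2.12 for *Dhx58*, against −0.59 to 2.09 with it. With 2 samples against 2, an exact permutation test of 1 gene cannot go below p = 0.333. Every adjusted p given here, from limma, edgeR or DESeq2, depends on variance borrowed across genes.

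Markers of other cells also differed between the groups. All 12 macrophage markers were lower in *Pich*-KO (limma, adjusted p under 0.05), with a summed level of 9208 and 8057 normalized counts against 62762 and 64987 in *Pich*-WT. Of 10 erythroid markers 9 were lower, with sums of 33310 and 36015 against 199189 and 140585, and of 8 hepatocyte markers 5 were lower, with sums of 3037 and 2554 against 4788 and 4258. By the same rule 9.60% of all genes tested were called lower, and 22.4% of the genes averaging 100 or more. No macrophage, erythroid or hepatocyte marker was at 0 in any sample. The part of these sums in the results that follow was not tested, and in bulk RNA fewer cells of a type cannot be told apart from less RNA per cell.

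**Figure D1:**
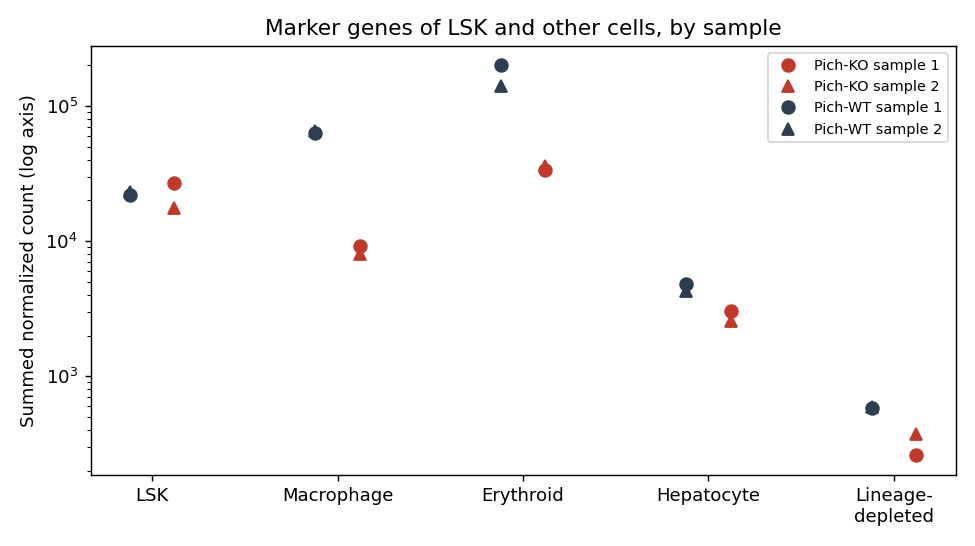
Summed normalized count (log axis) of the marker lists in each sample, with *Pich*-WT in dark blue, *Pich*-KO in red, circles for sample 1 and triangles for sample 2. Macrophage and erythroid sums are lower in both *Pich*-KO samples, while the LSK sums of the groups overlap.

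The LSK markers themselves were present in all samples. Of 9 such genes 1 was called higher and 4 lower (limma, adjusted p under 0.05), and their sums were 27053 and 17525 normalized counts in *Pich*-KO against 22021 and 22933 in *Pich*-WT. Over all genes tested the shares called higher and lower were 7.58% and 9.60%, and among genes averaging 100 or more 21.1% and 22.4%. The 4 that fell, named after their values were seen, are known as genes of hematopoietic stem cells. *Procr* had 76.3 and 38.6 normalized counts in *Pich*-KO against 362 and 460 in *Pich*-WT, *Hlf* 652 and 317 against 2172 and 2548, *Mecom* 216 and 135 against 720 and 751, and *Slamf1* 65.4 and 62.5 against 118 and 123. Their adjusted p by limma were 0.000872, 0.0012, 0.000748 and 0.0445 in that order. These 4 genes were not followed through the alternative fits. *Cd34* makes up much of the sums, so they do not show these falls. *Kit*, which encodes c-Kit, had 4447 and 2773 normalized counts in *Pich*-KO against 2328 and 2513 in *Pich*-WT (limma, adjusted p = 0.114), and passed by DESeq2 (adjusted p = 0.019). *Cd34* had 11424 and 6226 against 8901 and 8940 (limma, adjusted p = 0.869). *Ly6a*, which encodes the Sca-1 antigen used in the sort and is itself raised by interferon in many cells, had 3586 and 2978 against 901 and 1061 (log2 fold change 1.74, limma adjusted p = 0.000167). Of 6 markers of mature blood cells 2, *Cd4* and *Itgam*, were lower in *Pich*-KO, and the sums of the 6 were 261 and 372 against 578 and 595. The gate described in the methods names no antibody to the products of *Itgam* and *Cd3e*, which are among the 6. *Itgam* had 145 and 85.3 normalized counts in *Pich*-KO against 284 and 261 in *Pich*-WT. *Cd8a*, at 0 in 2 samples, and *Ly6g* had at most 4 normalized counts per sample, and *Cd4* had 15.9 to 226.

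Differences in normalized count were estimated by limma on log2(normalized count + 1). Its standard errors (SE) use a variance moderated across genes, so a ± value is not the spread of that gene's samples alone. *Ddx58*, *Ifih1*, *Dhx58*, *Eif2ak2*, *Zc3hav1* and *Adar* rose in *Pich*-KO LSK cells and *Mavs* fell, at an adjusted p under 0.05 over the 32428 genes tested. Of all genes tested, 7.58% were called higher and 9.60% lower by this rule. Among the 10544 better measured genes, those averaging 100 or more as these 7 did, 21.1% were called higher and 22.4% lower. In 6 of the genes both *Pich*-KO values lay above both *Pich*-WT values, as they did in 28.9% of all genes tested, and in *Mavs* both lay below, as in 27.2%. The median log2 fold change was 1.62 over the 7 genes and 0.02 over all genes tested.

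**Figure D2:**
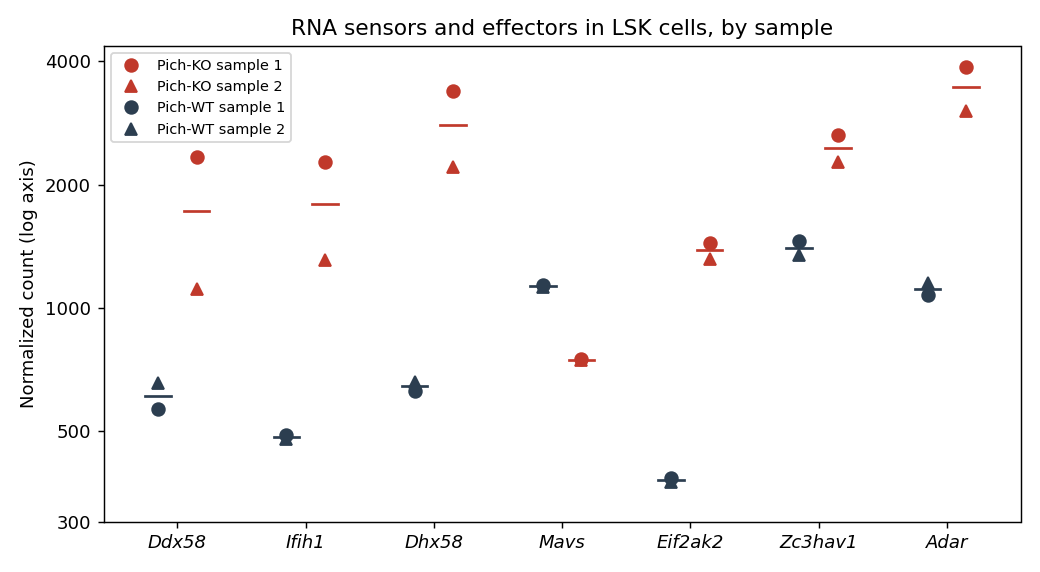
Normalized count (log axis) of the 7 genes in each sample, with *Pich*-WT in dark blue and *Pich*-KO in red, circles for sample 1, triangles for sample 2 and short lines at the group means. The *Pich*-KO points lie above the *Pich*-WT points for 6 genes and below them for *Mavs*, and the *Pich*-KO samples lie farthest apart for *Ddx58*.

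*Ddx58* (ENSMUSG00000040296, chromosome 4, 40203773 to 40239828, GRCm38) encodes RIG-I, the receptor for short RNA with triphosphate ends. Its normalized count was 2335 and 1114 in *Pich*-KO samples 1 and 2, against 566 and 654 in *Pich*-WT samples 1 and 2. The groups did not overlap, but *Pich*-KO sample 1 was 2.10 times sample 2. The mean was 2.83 times that of *Pich*-WT, with a log2 fold change of 1.41 ± 0.30 (SE; limma, adjusted p = 0.0147). Without *Pich*-KO sample 1 this change was 0.87. Without a filter on the mean the adjusted p of *Ddx58* was 0.0685.

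*Ifih1* (ENSMUSG00000026896, chromosome 2, 62595798 to 62646255) encodes MDA5, the receptor for long double-stranded RNA. Its normalized count was 2276 and 1310 in *Pich*-KO against 488 and 477 in *Pich*-WT. Both *Pich*-KO samples were at least 2.71 times the *Pich*-WT mean, and the *Pich*-WT samples differed little. The log2 fold change was 1.84 ± 0.24 (SE; limma, adjusted p = 0.00141).

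*Dhx58* (ENSMUSG00000017830, chromosome 11, 100694884 to 100704271) encodes LGP2 and showed the largest change of the group. It reached 3389 and 2206 normalized counts in *Pich*-KO, against 628 and 659 in *Pich*-WT. Its mean was 4.35 times the *Pich*-WT mean, with a log2 fold change of 2.09 ± 0.19 (SE; limma, adjusted p = 0.000323). An antisense gene that overlaps it by 2637 bases, *Dhx58os*, had at most 2.27 normalized counts in any sample.

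*Mavs* (ENSMUSG00000037523, chromosome 2, 131234063 to 131248025), the adaptor that RIG-I and MDA5 share, went the other way. Its normalized count was 749 and 745 in *Pich*-KO against 1134 and 1122 in *Pich*-WT. The samples of a group were nearly equal, and *Pich*-KO stood at 0.662 times the *Pich*-WT mean. Its log2 fold change was −0.59 ± 0.12 (SE; limma, adjusted p = 0.0135). That SE is moderated across genes and is not the spread of these samples. Their SDs were 3.36 normalized counts in *Pich*-KO and 8.46 in *Pich*-WT. By edgeR's quasi-likelihood test on recovered reads the adjusted p was 0.00796 with all samples, but 0.0620 without *Pich*-WT sample 1 and 0.0648 without *Pich*-WT sample 2.

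*Eif2ak2* (ENSMUSG00000024079, chromosome 17, 78852564 to 78882573) encodes PKR, the translation-halting kinase. It had 1442 and 1319 normalized counts in *Pich*-KO against 384 and 374 in *Pich*-WT. Both groups were tight, with a *Pich*-KO mean 3.64 times that of *Pich*-WT. The log2 fold change was 1.86 ± 0.14 (SE; limma, adjusted p = 0.000117), the lowest adjusted p of the 7 genes. The noncoding gene *Gm26637* on the other strand overlaps it by 532 bases and had 127 and 100 normalized counts in *Pich*-KO against 66.4 and 48.0 in *Pich*-WT. The strand setting of the counting is not given in the sources used here, so reads of the shared stretch cannot be told apart.

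*Zc3hav1* (ENSMUSG00000029826, chromosome 6, 38305286 to 38354603) encodes ZAP and rose least of the 6 that rose. It had 2650 and 2268 normalized counts in *Pich*-KO against 1452 and 1349 in *Pich*-WT. The groups did not overlap, and the *Pich*-KO mean was 1.76 times the *Pich*-WT mean. Its log2 fold change was 0.81 ± 0.12 (SE; limma, adjusted p = 0.00292).

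*Adar* (ENSMUSG00000027951, chromosome 3, 89715022 to 89753446) had 3883 and 3026 normalized counts in *Pich*-KO against 1077 and 1149 in *Pich*-WT. The *Pich*-KO mean was 3.10 times that of *Pich*-WT, and the log2 fold change was 1.62 ± 0.14 (SE; limma, adjusted p = 0.000228). The table counts reads per gene, so the long, interferon-inducible form and the short form of ADAR cannot be told apart. *Chrnb2* on the other strand overlaps *Adar* by 7252 bases and had 18.8 to 51.3 normalized counts per sample.

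Divided by the length of the gene model, the order of the levels differed between the groups. In *Pich*-WT cells *Mavs* stood first, at 339 and 335 normalized counts per kilobase in samples 1 and 2. *Zc3hav1* at 223 and 207 and *Dhx58* at 192 and 201 per kilobase followed, and their ranges did not overlap. *Adar* had 133 and 142 per kilobase, *Ddx58* 80.3 and 92.8, *Eif2ak2* 75.0 and 73.1, and *Ifih1* was lowest at 59.7 and 58.4. In *Pich*-KO cells *Dhx58* stood first, at 1036 and 674 normalized counts per kilobase. *Adar* at 478 and 373 was above *Zc3hav1* at 407 and 348 in both samples, though their ranges overlapped. Below these, *Eif2ak2* had 282 and 258 per kilobase, *Ddx58* 331 and 158, *Ifih1* 279 and 160 and *Mavs* 224 and 223. Of these genes, *Eif2ak2* was above *Ifih1* and *Mavs* in both samples, and the order of every other pair differed between the samples. The length is the 1 the table lists for each gene, so the levels per kilobase do not follow which transcripts the cells use.

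The receptors differed most between the *Pich*-KO samples. The ratio of sample 1 to sample 2 was 2.10 for *Ddx58*, 1.74 for *Ifih1* and 1.54 for *Dhx58*. It was 1.28 for *Adar*, 1.17 for *Zc3hav1*, 1.09 for *Eif2ak2* and 1.01 for *Mavs*. Over the 10544 genes averaging 100 or more the median of this ratio was 1.01, with 90% of genes between 0.731 and 1.75. A ratio as high as that of *Ddx58* was seen in 2.62% of these genes, of *Ifih1* in 5.12% and of *Dhx58* in 7.53%. Among the *Pich*-WT samples the 7 ratios ran from 0.865 to 1.08. The summed level of 9 LSK markers also differed between the *Pich*-KO samples, as did *Kit* and *Cd34*, and its part in these ratios was not tested.

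**Figure D3:**
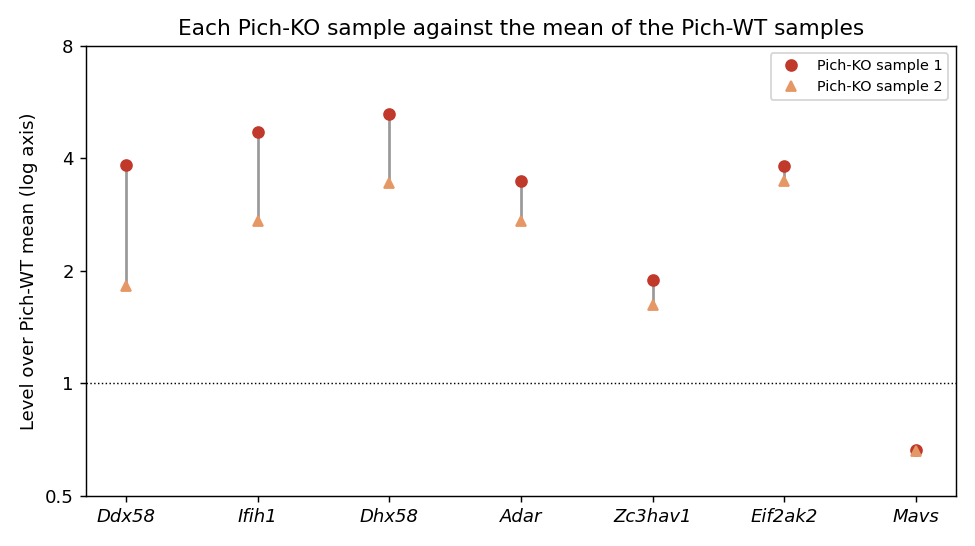
Level of each gene in *Pich*-KO sample 1 (red circles) and sample 2 (orange triangles) divided by the mean of the *Pich*-WT samples, on a log axis, with genes ordered by the gap between the samples and a dotted line at no change. *Ddx58* stood at 3.83 and 1.83 times the *Pich*-WT mean, while both points of *Mavs* fall together at 0.664 and 0.660.

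For each gene the most similar profile was sought among 10543 other genes averaging 100 or more, by Euclidean distance between centred log2 values over the 4 samples. *Herc6* was nearest to *Ifih1* at a distance of 0.07, with 577, 350, 128 and 128 normalized counts in *Pich*-KO samples 1 and 2 and *Pich*-WT samples 1 and 2. *Rtp4* was nearest to *Eif2ak2* at 0.08, *Trim30a* to *Adar* at 0.08, *Serinc3* to *Dhx58* at 0.10 and *Gbp6* to *Ddx58* at 0.18. *Tmx3* was nearest to *Zc3hav1* and *Reep5* to *Mavs*, at 0.03 and 0.04. The profile of *Mavs* was shared by many genes, with 680 within a distance of 0.25, as was that of *Zc3hav1* with 420. Only 2 genes were that near to *Ddx58*, and 3 each to *Ifih1* and *Dhx58*.

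The genes that act with these sensors were examined through 5 lists with 60 genes in all, and the same fit called 23 of them higher and 4 lower. Over all genes tested the shares were 7.58% and 9.60%, and among genes averaging 100 or more 21.1% and 22.4%, so that 2 of 10 higher in a list lies near the share of well measured genes. Their median log2 fold change was 0.30. The lists group genes by function, and 12 of the 19 genes of MAVS signalling and 7 of the 10 receptor regulators did not pass the threshold. The count of lower genes was 7 with edgeR's quasi-likelihood test and 9 when genes needed 10 reads in every sample.

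Of 10 regulators of the RIG-I-like receptors, 2 rose and 1 fell, with a median log2 fold change of −0.20. *Trim25*, a ubiquitin ligase that acts on RIG-I and is also a cofactor of ZAP, had 2861 and 2537 normalized counts in *Pich*-KO against 650 and 742 in *Pich*-WT. Its log2 fold change was 1.95 (limma, adjusted p = 8.0e-05). *Ddx60*, a helicase proposed to aid RIG-I signalling, had 834 and 497 against 259 and 267, a log2 fold change of 1.29 (limma, adjusted p = 0.00866). *Prkra*, which encodes the PKR activator PACT, fell from 399 and 451 to 276 and 176, by 0.94 on the log2 scale (limma, adjusted p = 0.0308), but with a pseudocount of 0.1 its adjusted p was 0.0600 and without a filter on the mean 0.0812. *Rnf135*, the ubiquitin ligase Riplet that RIG-I signalling needs, was named after its values were seen. It had 373 and 325 against 428 and 465 normalized counts and did not pass (limma, adjusted p = 0.214).

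Of 19 genes of MAVS signalling, 6 rose and 1 fell, and the median log2 fold change was 0.19. *Irf7*, the interferon regulatory factor that amplifies interferon production, had 9487 and 4981 normalized counts in *Pich*-KO against 1356 and 1615 in *Pich*-WT (log2 fold change 2.22, limma adjusted p = 0.000916). *Traf3*, a ubiquitin ligase between MAVS and the kinases, rose from 159 and 148 to 480 and 468 (log2 fold change 1.62, limma adjusted p = 0.000669). *Traf6* rose by 1.21 (limma, adjusted p = 0.00169) and *Itch*, a ubiquitin ligase that targets MAVS for degradation, by 1.05 (limma, adjusted p = 0.00238). The kinases *Tbk1* and *Ikbke* rose by 0.76 and 0.80 (limma, adjusted p = 0.00875 and 0.0205), and that of *Ikbke* was 0.0564 without a filter on the mean. *Mfn1*, a mitofusin of the outer membrane where MAVS resides, fell from 739 and 770 to 502 and 475, by 0.63 on the log2 scale (limma, adjusted p = 0.0189). *Irf3*, the factor that MAVS signalling activates directly, had 1095 and 1220 against 1054 and 980 (limma, adjusted p = 0.412), and *Ripk1* had 1242 and 1219 against 1650 and 1568 (limma, adjusted p = 0.0537). Neither passed, and both were named after their values were seen. With edgeR's quasi-likelihood test the adjusted p of *Ripk1* was 0.0271.

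**Figure D4:**
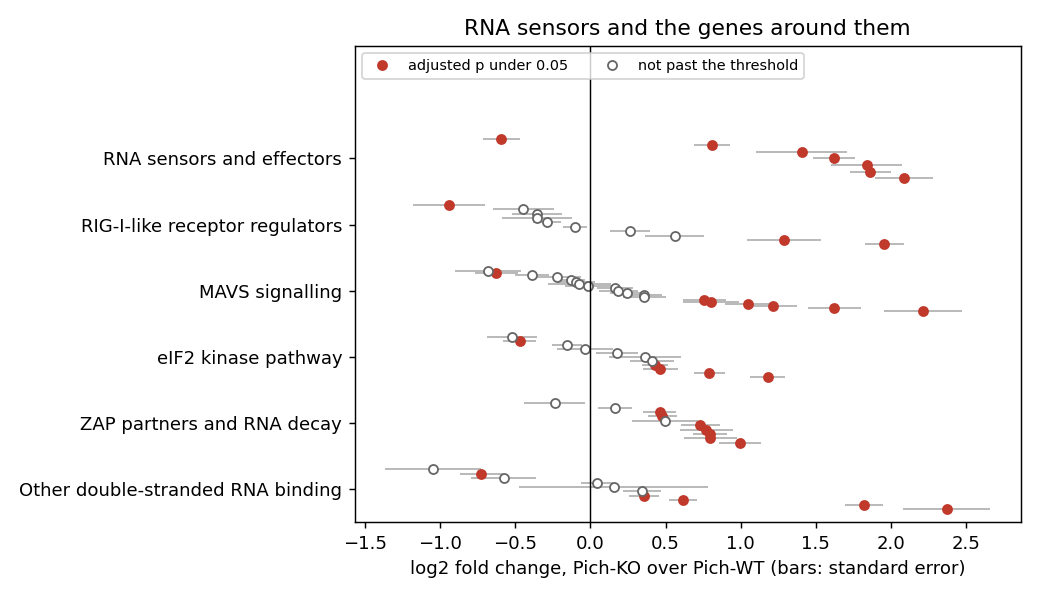
Log2 fold change of *Pich*-KO over *Pich*-WT from limma for the 7 RNA sensors and effectors and the 60 genes of the 5 lists. Each gene is 1 point with its moderated standard error, filled red at an adjusted p under 0.05 and open otherwise. *Mavs* is the filled point left of zero in the top row, and the lists below spread to both sides of zero.

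The eIF2 pathway, on which PKR acts, had 4 of 11 genes higher and 1 lower, with a median log2 fold change of 0.36. *Ppp1r15b*, a subunit of the phosphatase that removes the phosphate PKR adds, rose from 960 and 978 to 2104 and 2291 normalized counts (log2 fold change 1.18, limma adjusted p = 0.000392). *Eif2s1*, which encodes the eIF2 subunit that PKR phosphorylates, rose by 0.79 (limma, adjusted p = 0.00135). *Eif2s2* rose by 0.47 (limma, adjusted p = 0.0306), which was 0.0527 with a pseudocount of 0.1, and *Atf4*, a transcription factor whose translation eIF2 phosphorylation favours, by 0.43 (limma, adjusted p = 0.0113). *Eif2ak1*, the heme-regulated kinase of erythroid cells, fell from 2752 and 2551 to 2018 and 1813, by 0.47 on the log2 scale (limma, adjusted p = 0.0218). *Eif2ak3* had a log2 fold change of −0.52 (limma, adjusted p = 0.0765) and *Eif2ak4* of 0.41 (limma, adjusted p = 0.104), and both were named after their values were seen. By edgeR's quasi-likelihood test their adjusted p were 0.0406 and 0.0430, and by limma with at least 10 reads in every sample 0.0401 and 0.0495.

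ZAP partners and RNA decay genes were higher in 7 of 10 cases and lower in 0 at this threshold, with a median log2 fold change of 0.61. *Khnyn*, the ribonuclease cofactor of ZAP, rose from 626 and 658 to 1030 and 1104 normalized counts (log2 fold change 0.73, limma adjusted p = 0.00686). The decapping genes *Dcp1a* and *Dcp2* rose by 0.99 and 0.80 (limma, adjusted p = 0.00214 and 0.0174). The exonuclease *Xrn1* rose by 0.77 (limma, adjusted p = 0.02), and the exosome subunits *Exosc7* and *Exosc5* by 0.79 and 0.46 (limma, adjusted p = 0.0022 and 0.0227). *Dhx30*, a helicase that aids ZAP, rose by 0.48 (limma, adjusted p = 0.012).

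Among 10 other genes for double-stranded RNA binding, 4 rose and 1 fell, and the median log2 fold change was 0.25. *Zbp1*, a sensor of Z-form nucleic acid that shares its Z-binding domain with the long form of ADAR, had 1719 and 868 normalized counts in *Pich*-KO against 226 and 245 in *Pich*-WT (log2 fold change 2.37, limma adjusted p = 0.0011). *Dhx9*, a nuclear RNA helicase, rose from 1001 and 1197 to 3677 and 4062 (log2 fold change 1.82, limma adjusted p = 9.5e-05). *Ilf2*, which encodes a nuclear RNA-binding protein, rose by 0.62 (limma, adjusted p = 0.00284). *Dicer1*, the microRNA-processing enzyme, fell from 797 and 760 to 488 and 454, by 0.73 on the log2 scale (limma, adjusted p = 0.0102). *Adarb1*, the other catalytic editing enzyme, had 86.2 and 55.7 against 175 and 119 and did not pass (limma, adjusted p = 0.0619). It was named after its values were seen, and by edgeR's quasi-likelihood test its adjusted p was 0.0468.

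Of the 50 list genes with a RefSeq promoter window, 5 held the spaced GAAA pair, which 3.44% of all windows held. The first count is of genes with a match in any window, and some have more than 1 window, so the shares are in unlike units. *Ddx60* and *Eif2s1* rose, and *Ripk1*, *Eif2s3x* and *Ppp1r15a* did not pass the threshold, the last 2 named after their values were seen.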

How the data were processed

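Total RNA of sorted fetal liver LSK cells was sequenced from Illumina TruSeq libraries. The authors deposited 1 table whose sample values are a signal, namely reads counted per gene divided by a size factor for each sample. The submitters' processing notes name Bowtie 0.12.2 and the builds mm8 and mm9. The counter and the annotation are not given in the sources used here. GENCODE M21 held 39163 of the genes, 97.8% of them with identical ends, so coordinates are on GRCm38. Columns of the authors' group means, fold changes and p-values were not used. All values were whole multiples of a step within 0.001 (100% in each sample), which gave back the reads. Depth limits the precision only of low genes, and each of the 7 genes had at least 374 reads in every sample.

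Groups were taken from the sample titles and compared with limma 3.58.1 (R 4.3.3) on log2(value + 1), for genes averaging 1 or more. The prior variance was a trend over expression level, and p-values were adjusted by Benjamini-Hochberg over all genes. This scale understates the change of low genes. Samples within *Pich*-KO and within *Pich*-WT were not copies of each other (chi-square per degree of freedom 14.7 and 8.18). Alternatives were a pseudocount of 0.1, no filter, at least 10 reads per sample, a replicate block, TMM scaling, no variance trend, edgeR 4.0.16 (quasi-likelihood) and DESeq2 1.42.0 on the recovered reads, and leaving out each sample. edgeR without each sample was added after the data had been seen. The limma and edgeR fits were also run on simulated counts with the same dispersion for every gene. That setting cannot check the variance model on which the calls depend.

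The 7 genes and the lists were chosen with earlier results of these data known. Named are the 7 genes, genes called in each list (1 is not reported here), the nearest profile to each of the 7, *Kit*, *Ly6a* and *Cd34*, and genes the text marks as named after their values were seen. Sequences are RefSeq promoter windows matched by symbol.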

Additional observations from a re-analysis of the deposited data

How the results depend on the processing

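The variance model decided the calls. Without a variance trend, 0 genes were called higher and 0 lower over all genes, over the 7 RNA sensors and effectors and over the 60 genes around them, although 7377 genes and 6 of the 7 had an unadjusted p under 0.05. Leaving out 1 sample, with limma and with edgeR, gave 0 to 3685 genes higher and 0 to 3917 lower in all, 0 to 6 of the 7 higher and 0 to 1 lower, and 0 to 27 of the 60 higher and 0 to 9 lower. Each 0 among the higher genes came from limma, which then has 1 residual degree of freedom and assumes that the lone sample varies like the other group. With limma 5757 to 8599 genes and 6 or 7 of the 7 had an unadjusted p under 0.05 in these fits. With edgeR 6 of the 7 were higher without any 1 sample, and the call of *Mavs* was lost without either *Pich*-WT sample, at adjusted p of 0.0620 and 0.0648. The log2 fold change of *Ddx58* ran from 0.87 to 1.94 without a sample in limma. Of the 60 genes around the sensors, 9 were lower with at least 10 reads in every sample, 7 with edgeR and 7 with DESeq2, against 4 with limma. *Cd34*, which was not called with all samples, had a log2 fold change of −0.08 with limma, 0.0038 with edgeR, and −0.52 to 0.39 when a sample was left out, with 0.36 (limma) and 0.39 (edgeR) without *Pich*-KO sample 2 and 0.018 (edgeR) without *Pich*-WT sample 2. With edgeR it was called lower without *Pich*-KO sample 1 (−0.49, adjusted p = 0.000535) and higher without *Pich*-KO sample 2 (adjusted p = 0.00162). *Kit* was called higher by DESeq2 and with the replicate block (adjusted p = 0.019 and 0.00118). Scaling by TMM moved none of the 43 named genes across the threshold.

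The replicate numbers pair nothing the labels name, and the correlation of the deviations of same-numbered samples was 0.0133 over 10544 genes. With the replicate block 3122 genes were higher and 3874 lower, with 6 of the 7 genes higher and 1 lower and 24 and 7 of the 60.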
